A study of Mus musculus with 16 samples.

Results

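The genes described here are Pmel, Mlana, Gpr143, Oca2, Slc45a2 and Gpnmb, which encode structural and membrane proteins of the melanosome. They were chosen by gene symbol in the array annotation, whatever their values, and make up 6 of the 9450 genes and 13 of the 14121 probes that passed the detection filter. No probe of these genes was lost to that filter, which kept probes detected (p under 0.05) on 4 or more arrays. Total RNA was measured on 16 Illumina bead arrays, 7 of control tissue, 4 of tumor microenvironment at day 4 and 5 at day 14 after inoculation of B16, a pigmented melanoma line that arose in C57BL/6 mice. All 3 groups came from C57BL/6 mice with a labelled age of 8 weeks, and no other treatment or allele is named. The labels do not say which tissue served as control, whether each array came from a separate mouse, or whether tissue was pooled, so p-values measure only the spread between these arrays.

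The melanosome is a lysosome-related organelle in which pigment cells make and store melanin. It matures in steps: Pmel is cut into fragments that form the fibrils on which melanin is later laid down, Mlana binds Pmel and takes part in its maturation, Oca2 and Slc45a2 raise the pH inside the organelle so that tyrosinase can work, and Gpr143 is a receptor in the melanosome membrane known for its part in organelle size and number. Gpnmb, a relative of Pmel, sits in the melanosome too, but macrophages, osteoclasts and dendritic cells also make it. Because B16 and the host share a strain, the probes cannot tell transcripts of the graft from those of host melanocytes.

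Several arrays stood apart before any comparison was made. Control array 1 had little signal from pigment genes, with 2 of the 6 melanosome genes detected. On the other 6 control arrays at least 5 of the 6 were detected, as on each of the 9 tumor arrays, so the control label did not mark tissue without pigment cell transcripts. Of the 7 tested melanocyte markers that are not among the 6 genes, 4 were detected on control array 1, 6 on day 14 array 4 and 7 on each other array. Day 4 array 4 and day 14 arrays 2 and 5 detected 1, 2 and 2 of 16 macrophage genes and 1, 4 and 1 of 7 epidermis genes, while the other 13 arrays detected all of both lists. The 7 skeletal muscle and 6 fibroblast genes tested were all detected on each control array. Because the samples are bulk RNA, fewer cells of a type and less RNA per cell cannot be told apart.

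Pmel, the fibril protein, was spread widely within each group. Its log2 signal lay between 5.45 and 14.30 in controls, with a median of 12.62. The day 4 arrays 1 to 4 gave 14.29, 9.85, 13.07 and 13.72, and the day 14 arrays 1 to 5 gave 12.89, 13.75, 14.21, 9.96 and 13.98. Control array 1 was the lowest of all 16 arrays and control array 6 the highest, and the groups overlapped. On the linear scale of the scanner the same Pmel probe ran from 153 on control array 1 to 21881 units. A second Pmel probe also had its lowest signal on control array 1, at 5.12.

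Mlana, also known as the melanoma antigen MART-1, followed almost the same order. Controls ranged from 4.62 to 14.50 on the log2 scale, with a median of 12.74. Day 4 arrays 1 to 4 gave 14.31, 10.46, 13.54 and 13.60, and day 14 arrays 1 to 5 gave 13.22, 13.68, 14.15, 10.55 and 14.31. The groups again overlapped, and the lowest 4 of the 16 arrays were control array 1, day 4 array 2, day 14 array 4 and control array 3, as for Pmel. On control array 1 the Mlana probe was not detected.

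Gpr143, the melanosome receptor, had a log2 signal of 4.38 to 11.01 in controls, with a median of 8.18. Day 4 arrays 1 to 4 had 10.68, 5.18, 8.50 and 9.79, and day 14 arrays 1 to 5 had 8.74, 10.07, 10.81, 5.83 and 10.78. Its probe was close to background on the arrays that were low for Pmel. It was not detected on control array 1, and on control array 3 and day 4 array 2 it was detected at 157 and 136 scanner units.

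Of the transporters, Oca2, the melanosomal anion channel, ranged from 4.41 to 11.36 in controls, with a median of 9.27. Its day 4 values were 11.20, 4.91, 9.55 and 8.85 on arrays 1 to 4, and its day 14 values were 9.42, 8.32, 10.87, 6.44 and 10.23 on arrays 1 to 5. Oca2 was detected on 13 of the 16 arrays and missed on control arrays 1 and 3 and on day 4 array 2. Slc45a2, a transporter mutated in a form of human albinism, ranged from 4.64 to 12.82 in controls, with a median of 10.78. Its day 4 values were 12.78, 8.00, 11.48 and 11.98, and its day 14 values were 11.43, 11.53, 13.05, 6.80 and 12.13. For both genes the 3 groups overlapped, and day 14 array 4 was the lowest of its group.

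Gpnmb was the steadiest of the 6 genes on its brightest probe. The log2 signal was 10.04 to 14.48 in controls, with a median of 14.21, then 14.26, 13.24, 14.28 and 14.24 on day 4 arrays 1 to 4, and 14.16, 14.32, 14.38, 13.50 and 14.23 on day 14 arrays 1 to 5. Without control array 1 it spanned 1.24 log2 units, against 4.04 to 6.45 for the other 5 genes. This probe lay near the top of the scale: outside control array 1 it read 9825 to 23664 units, where the highest signals of any probe on an array were 23822 to 30681. Whether this narrowed its span was not tested.

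**Figure D1:**
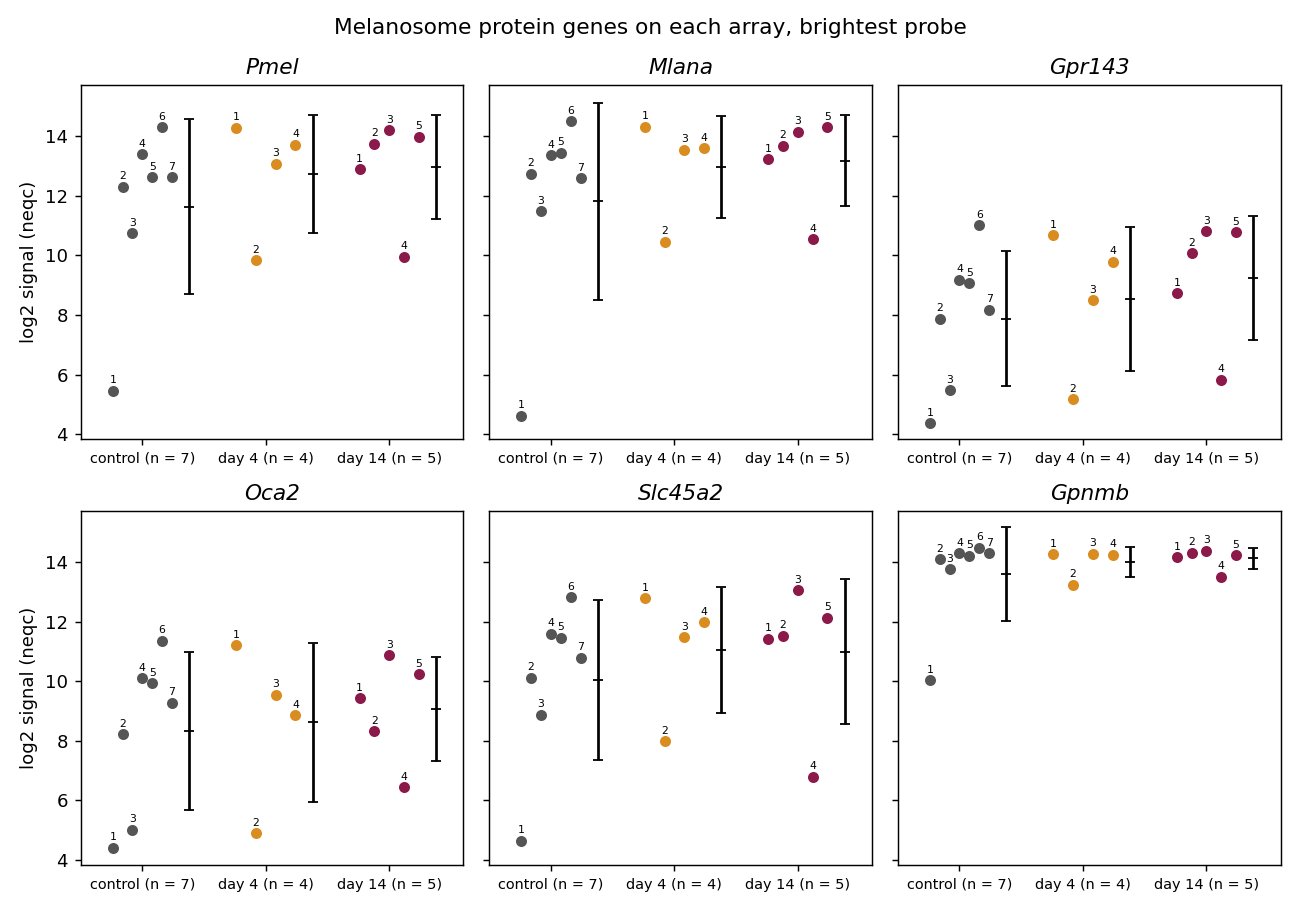
Normalized log2 signal (vertical axis) of the brightest probe of each gene on each array, by group (horizontal axis); numbers beside points are array numbers, and the black marks give the mean and SD of each group. The 3 groups overlap for each of the 6 genes, and control array 1, day 4 array 2 and day 14 array 4 are the lowest of their groups for each gene.

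The other 3 Gpnmb probes moved over a wider range than the brightest, and not in parallel with it. Outside control array 1 their log2 signals ran from 9.82 to 13.63, from 5.53 to 9.97 and from 5.66 to 10.38, in order of brightness. The narrow span of Gpnmb above thus holds for its brightest probe only. The second brightest had a log2 signal of 6.40 to 12.16 in controls, with a median of 10.59. On day 4 arrays 1 to 4 it was 10.18, 9.82, 12.11 and 13.55, and on day 14 arrays 1 to 5 it was 12.10, 13.63, 12.76, 10.41 and 13.62. This probe was thus highest on the 3 arrays with few macrophage transcripts, as were the remaining 2 Gpnmb probes. Its log2 ratio to the brightest probe was -0.69, -0.69 and -0.61 on those arrays, -4.11 on control array 6 and -4.07 on day 4 array 1, and between -3.63 and -1.62 on the other 11. Control array 6 and day 4 array 1 were also similar over all genes (r = 0.980 across genes, which are not independent replicates).

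Gpnmb was set against macrophage genes because those cells can make it. On day 4 array 4 and day 14 arrays 2 and 5 the mean log2 signal of the 16 macrophage genes was 4.66, 4.95 and 4.78, and their summed signal was 419, 520 and 477 units after normalization. On the other 13 arrays the mean was 9.33 to 10.50 and the sum 30980 to 55690. Gpnmb was 14.24, 14.32 and 14.23 on the first 3 arrays with its brightest probe, within the range of the others, and above each of the others with its second probe. Control array 1, with all 16 macrophage genes detected and a mean of 9.72, had the lowest Gpnmb signal with each of its 4 probes. On that array the brightest and second brightest of these probes were detected and the others were not. The mean of the 7 melanocyte markers was also lowest there, at 6.20, against 8.17 to 11.34 on the other arrays. Which cells the Gpnmb signal came from was not tested.

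**Figure D2:**
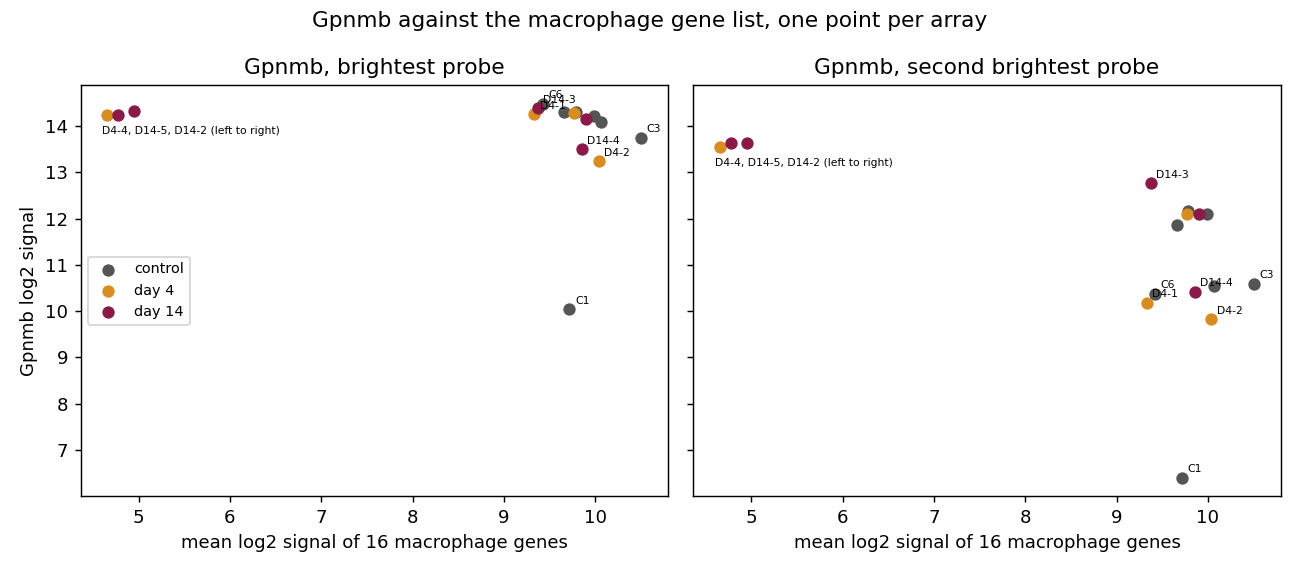
Log2 signal of the brightest (left) and second brightest (right) Gpnmb probe (vertical axes) against the mean log2 signal of 16 macrophage genes (horizontal axes), 1 point per array, colored by group (C control, D4 day 4, D14 day 14). The 3 arrays with macrophage means under 5 have Gpnmb signals of 14.23 to 14.32 and 13.55 to 13.63, and control array 1 lies lowest.

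Hair follicle markers were high on part of the same arrays. The 4 tested hair follicle keratin genes had mean log2 signals of 13.68 on control array 6, 13.03 on day 4 array 1, 12.93 on day 14 array 3 and 14.32 on day 14 array 4, and 4.77 to 7.86 on the other 12 arrays. Control array 6, day 4 array 1 and day 14 array 3 were the highest 3 arrays for Pmel and for Oca2, whereas day 14 array 4 was among the lowest for each of the 6 genes. The part of hair follicle RNA in these levels was not tested.

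No difference between groups was called for any of the 6 genes. In the limma model over all 16 arrays, 0 of 6 genes were called for day 4 against control, where 0% of all 9450 genes passed both thresholds (a 2-fold difference and an adjusted p under 0.05). For day 14 against control 0 of 6 were called, with a background of 0%, and for day 14 against day 4 again 0 of 6 with a background of 0%. Unadjusted p-values were under 0.05 for 56, 1703 and 57 of the 9450 genes in these 3 comparisons and for none of the 6. At the level of probes, 0 of 13 were called in each comparison, against 0% of 14121 probes.

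The point estimates were above 0 for each gene at both days against control, with intervals that spanned 0. For day 4 against control, the log2 difference was 1.10 for Pmel (standard error 1.40), 1.16 for Mlana (standard error 1.47), 0.65 for Gpr143 (standard error 1.30), 0.30 for Oca2 (standard error 1.40), 1.01 for Slc45a2 (standard error 1.44) and 0.41 for Gpnmb (standard error 0.658). Adjusted p from limma lay between 0.761 and 0.929. The median difference over all 9450 genes was 0.05.

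For day 14 against control the log2 difference was 1.32 for Pmel (95% interval -1.45 to 4.10), 1.36 for Mlana (-1.56 to 4.28), 1.36 for Gpr143 (-1.23 to 3.95), 0.73 for Oca2 (-2.05 to 3.50), 0.94 for Slc45a2 (-1.92 to 3.80) and 0.52 for Gpnmb (-0.79 to 1.83), with adjusted p from limma of 0.458 to 0.715. The median over all genes was 0.04. Both comparisons share the 7 controls. Against day 4, day 14 differed by -0.07 for Slc45a2 to 0.71 for Gpr143, each with an adjusted p of 1, and the interval for Gpnmb was -1.39 to 1.61. These intervals leave room for changes of more than 2-fold in either direction, except that the lower bounds for Gpnmb against control lie above a 2-fold decrease, and they do not show that the groups were alike.

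Single arrays moved these estimates, some across 0. Control array 1, on which 4 of the 6 genes were not detected, mattered for each gene: leaving it out turned 3 of 6 signs at day 4 and 1 of 6 at day 14. Without it, the day 4 difference was 0.07 for Pmel, -0.042 for Mlana, 0.07 for Gpr143, -0.36 for Oca2, 0.11 for Slc45a2 and -0.18 for Gpnmb. The day 14 difference was then 0.29, 0.16, 0.78, 0.07, 0.042 and -0.070 in the same order of genes. Other arrays also turned single signs at day 4: without day 4 array 1 the difference was -0.063 for Gpr143 and -0.56 for Oca2, and without control array 3 it was -0.26 for Oca2. In all, the day 4 sign of Oca2 turned in 4 of the fits with 1 array left out. With control array 1 and the 3 arrays of few macrophage transcripts left out together, the 6 genes had differences below 0 at both days, from -0.43 for Oca2 to -0.19 for Slc45a2 at day 4 and from -0.52 for Slc45a2 to -0.01 for Gpr143 at day 14. No gene was called in any of these fits.

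**Figure D3:**
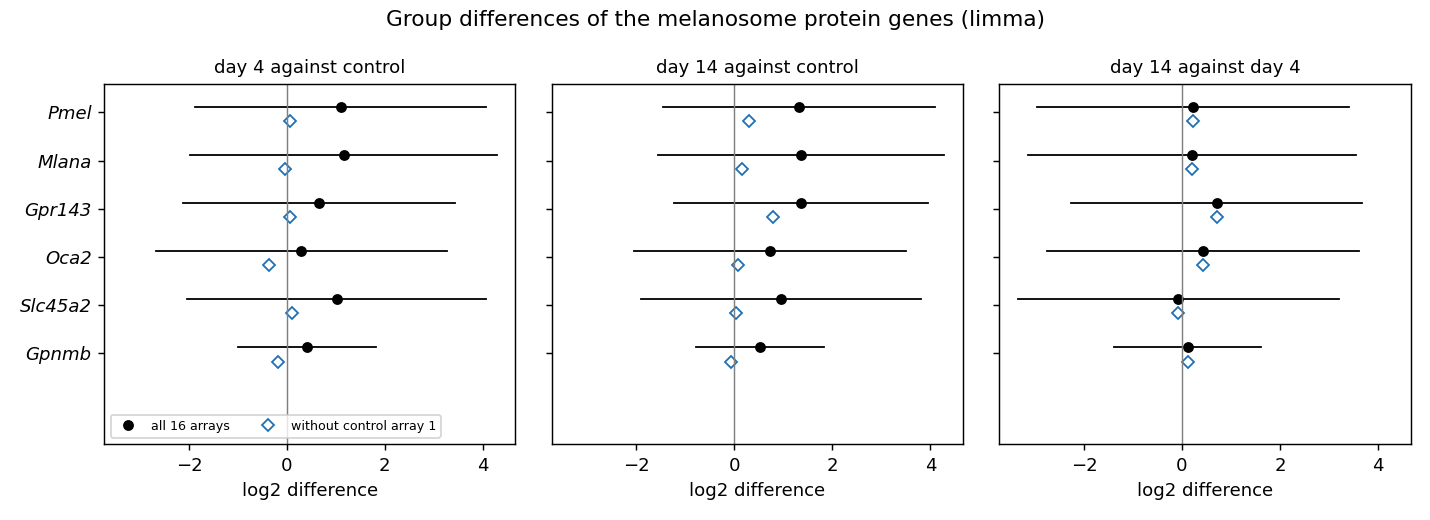
Log2 difference (horizontal axis) of each gene (vertical axis) in the 3 comparisons: black points and lines give the limma estimate and its 95% interval over all 16 arrays, and open diamonds the estimate without control array 1. The 6 estimates against control lie above 0 with all arrays and between -0.36 and 0.78 without control array 1.

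Group membership held little of the spread of these genes. The share of the sum of squares that lay between the 3 groups was 7.35% for Pmel, 7.17% for Mlana, 7.64% for Gpr143, 1.99% for Oca2, 4.47% for Slc45a2 and 5.25% for Gpnmb. Some share also lies between groups that do not differ, and no share over all genes was set beside these. Group means stood in the order day 14, day 4, control from high to low for 5 genes, while the means of Slc45a2 were 11.06 ± 2.11 (SD, n = 4), 10.99 ± 2.43 (SD, n = 5) and 10.04 ± 2.69 (SD, n = 7) for day 4, day 14 and control. For Pmel the means of day 14, day 4 and control were 12.96 ± 1.75 (SD, n = 5), 12.73 ± 1.99 (SD, n = 4) and 11.63 ± 2.93 (SD, n = 7). Neighbours in this order differed by less than their SD for each of the 6 genes.

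Probes of the same gene gave similar answers for Pmel and differed in size for Gpnmb. The second Pmel probe had a log2 difference of 1.26 at day 4 and 1.73 at day 14 against control. For Slc45a2 the 4 probes gave 0.89 to 1.07 at day 4 and 0.57 to 1.09 at day 14. For Gpnmb the second brightest probe gave 0.84 at day 4 and 1.93 at day 14 (standard error 0.947, adjusted p = 0.273 over all probes, limma), against 0.41 and 0.52 for the brightest. The other 2 Gpnmb probes gave 1.14 and 1.59 at day 14, with adjusted p of 0.357 and 0.274 by limma over all probes.

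Whether Gpnmb differed between groups in another way than the other 5 genes was tested on the log2 ratio within each array. Gpnmb over Pmel was 1.96 ± 1.44 (SD, n = 7) in controls, 1.27 ± 1.50 (SD, n = 4) at day 4 and 1.16 ± 1.40 (SD, n = 5) at day 14. The difference of these ratios was -0.69 at day 4 and -0.80 at day 14 against control (two-sided exact permutation tests, p = 0.473 and 0.364, adjusted p = 0.968 over 15 tests). Over the 5 partner genes and 3 comparisons the differences ranged from -0.84 to 0.19 and each adjusted p of the exact permutation tests was 0.968. With the second Gpnmb probe, an alternative chosen after the data were seen, the differences ranged from -0.32 to 1.20, with adjusted p of 0.903 to 0.933 by the exact permutation test. Outside control array 1 the brightest Gpnmb probe spanned 1.24 log2 units and the partner genes 4.04 to 6.45, so its ratios moved mostly with the partner gene. That probe lies near the top of the scale, and whether this limits its ratios was not tested. On control array 1 Mlana, Gpr143, Oca2 and Slc45a2 were not detected, so the ratios of that array are no measured ratios for these 4 partners. Oca2 was not detected on control array 3 and day 4 array 2 either, so the Gpnmb to Oca2 ratios of those arrays are also no measured ratios. Without control array 1 the Gpnmb over Pmel difference was -0.25 at day 4 and -0.36 at day 14.

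The 6 genes went up and down together from array to array. Over 15 gene pairs and 16 arrays, Pearson's r lay between 0.710 for Oca2 with Gpnmb and 0.986 for Pmel with Mlana, and Spearman's rho between 0.754 and 0.979. The permutation p of r was 1e-05 or 2e-05 for each pair, of which 1e-05 is the smallest that 100000 permutations can give, and 1.25e-05 or 2e-05 after Benjamini-Hochberg adjustment. Without the 2 arrays farthest from the median of the first gene, r remained between 0.841 and 0.978. Within the 7 controls r was 0.752 to 0.991 (exact permutation test, highest adjusted p = 0.00238), and within the 9 tumor arrays it was 0.899 to 0.993. Without control array 1, r was 0.884 to 0.935 for the 5 pairs with Gpnmb.

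Promoters are shown as a description of sequence, and whether Mitf has a part in the common movement of these genes was not tested. Mitf, the factor known to regulate pigment genes, binds E-boxes of the letters CANNTG and most often CATGTG or CACGTG. Of the 6 genes, 2 matched an entry of the RefSeq promoter table (build GRCm38.p6), each with 250 bases before and 50 after the gene start. The Gpnmb entry is chr6:49036268-49036567 and the Oca2 entry chr7:56239509-56239808, both on the plus strand and printed 5′ to 3′, with matches to CANNTG in capitals.
Gpnmb: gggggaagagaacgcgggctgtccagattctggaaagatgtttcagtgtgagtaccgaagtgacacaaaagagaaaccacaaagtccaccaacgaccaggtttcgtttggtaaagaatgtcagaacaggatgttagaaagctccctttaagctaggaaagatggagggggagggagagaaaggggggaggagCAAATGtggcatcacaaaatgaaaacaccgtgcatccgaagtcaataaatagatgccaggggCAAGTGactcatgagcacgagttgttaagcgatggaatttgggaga
Oca2: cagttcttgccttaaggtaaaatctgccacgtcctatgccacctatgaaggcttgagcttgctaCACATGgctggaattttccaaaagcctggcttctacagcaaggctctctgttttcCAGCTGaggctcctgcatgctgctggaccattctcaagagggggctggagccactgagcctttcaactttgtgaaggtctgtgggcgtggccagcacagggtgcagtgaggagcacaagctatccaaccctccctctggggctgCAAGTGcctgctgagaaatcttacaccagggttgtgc
The Oca2 window holds 3 matches to CANNTG, of which the first, CACATG at -186 to -181 from the start, is CATGTG read on the opposite strand. The Gpnmb window holds 2, CAAATG at -58 to -53 and CAAGTG at 5 to 10, and none to CATGTG or CACGTG. Positions count from 1 at the first base of the gene. On both strands CATGTG occurs in 14.2% of 32851 such windows, CACGTG in 7.15% and CANNTG, which covers the other two, in 72.3%. A match describes the letters of the window and does not show binding.

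Within this common pattern some ratios between genes shifted. Ranges are given over the arrays on which both genes were detected. The log2 ratio of Oca2 to Gpr143 was 0.06 to 1.10 on 10 arrays with both genes detected. It was -0.93 on day 4 array 4, -1.75 on day 14 array 2 and -0.55 on day 14 array 5, the arrays with few macrophage, epidermis, muscle and fibroblast transcripts. These 3 arrays had the lowest ratios of the 13, and since different probes have different brightness, only the shift between arrays can be read. The ratio of Slc45a2 to Pmel was -3.17 on day 14 array 4 and -2.22 to -1.16 on the other 14 arrays with both detected. The ratio of Mlana to Pmel was -0.13 to 0.81 on the 15 arrays with both detected. Control array 1 is left out of all 3 ranges.

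**Figure D4:**
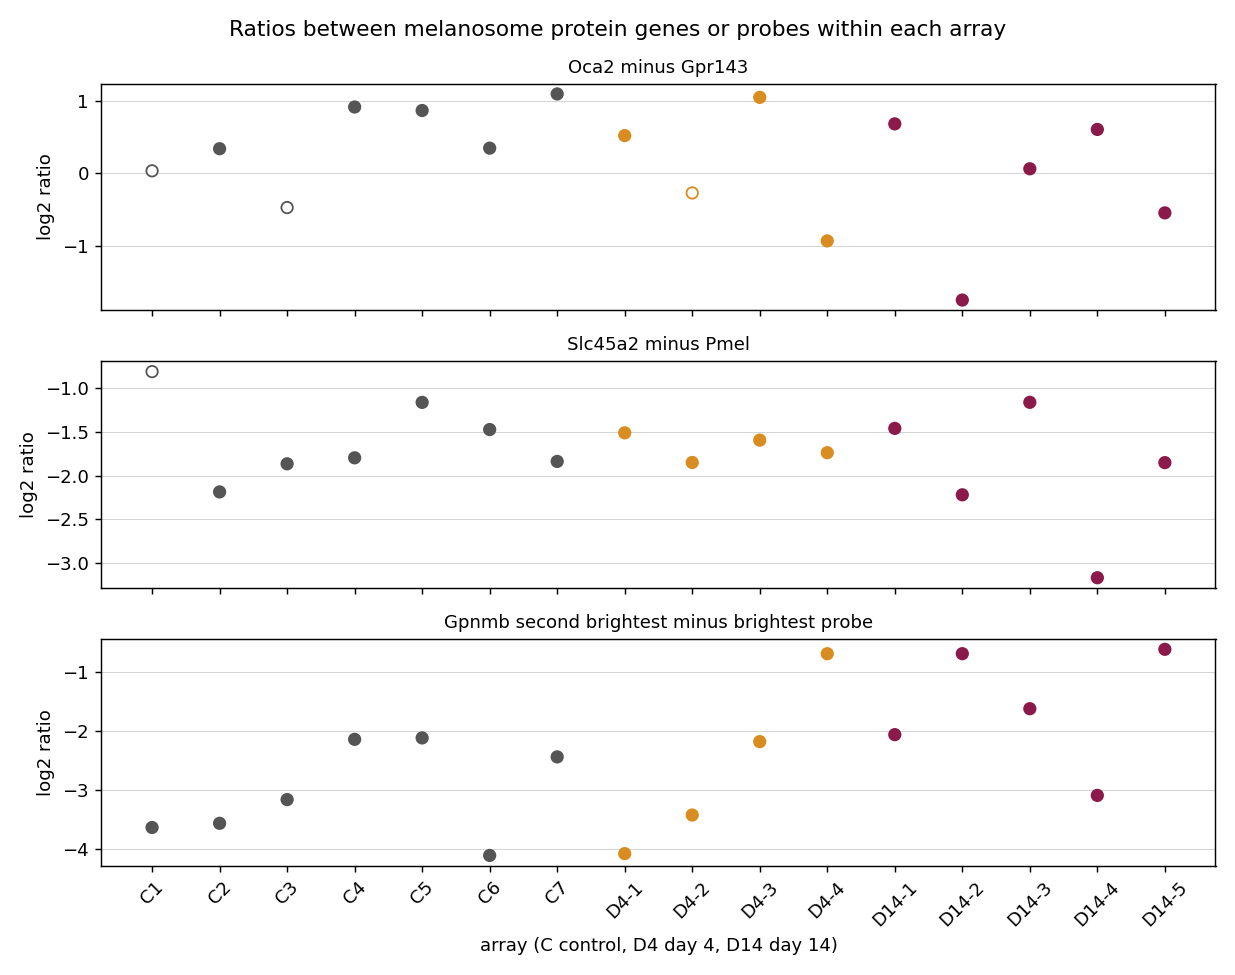
Log2 ratios (vertical axes) of Oca2 to Gpr143, of Slc45a2 to Pmel and of the second brightest to the brightest Gpnmb probe on each of the 16 arrays (horizontal axis), colored by group, with open circles where 1 or both genes of the first 2 panels were not detected. Day 4 array 4 and day 14 arrays 2 and 5 are lowest in the first panel and highest in the third, and day 14 array 4 is lowest in the second at -3.17.

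The genes outside the 6 whose levels were most alike over the 16 arrays were found by Pearson's r, given as a description. Tspan10, a tetraspanin, had the highest mean r with the 5 genes other than Gpnmb (0.954), followed by Dclk2, Ptgds, Syngr1 and Mns1. Slc45a2 was nearest to Tspan10 (r = 0.985) and to Sox10, a transcription factor of neural crest cells and melanocytes (0.981). Pmel and Mlana were both nearest to Syt4, a synaptotagmin (0.978 and 0.981), and Gpr143 to Rapsn (0.984). Tspan10 was also nearest to Oca2 (0.940).

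The nearest genes of Gpnmb on its brightest probe were partly those of Pmel and Mlana. They were Dct, the dopachrome tautomerase of melanin synthesis, at r = 0.990, Tyrp1, a melanosomal enzyme, at 0.968, and Syt4 at 0.945. Tyrp1 was also among the nearest genes to Mlana (0.978), and Syt4 was nearest to both Pmel and Mlana. Dct itself had a log2 signal of 8.19 on control array 1 and of 12.83 to 14.53 on the other arrays. Without control array 1, Gpnmb and Dct had r = 0.892. Of the macrophage genes, r with Gpnmb was -0.199 for the mean of the list, against 0.889 for the mean of the 7 melanocyte markers, and for the other 5 genes -0.477 to -0.201 and 0.861 to 0.990.

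Other genes of melanosome formation and melanin synthesis were read from lists, none of which had a called member in any comparison. Of 10 listed melanin enzymes and transporters, 7 were tested, and their median log2 difference was 0.65 at day 4 and 0.66 at day 14 against control. Tyr, the tyrosinase that starts melanin synthesis, differed by 0.95 and 0.66 (standard errors 1.20 and 1.12), and Tyrp1 by 0.98 at both days. Slc7a11, the cystine transporter, had the list's highest value at day 14, 2.08 (standard error 0.884, limma adjusted p = 0.269), and day 14 array 2 alone carried much of it: its log2 signal there was 11.20, and without that array the difference was 1.18 (limma adjusted p = 0.597). Without the 3 arrays of few macrophage transcripts Tyr was at 0.49 and -0.19 and Tyrp1 at 0.66 and 0.25. Control array 1 was the lowest control for Tyr, Tyrp1 and Dct. Tyrp1 was 5.30 there and 11.42 to 13.40 on the other controls, and Dct was 8.19 there and 13.69 to 14.53 on the others. No difference of a listed gene was recomputed without control array 1, so these differences include that array. Of the 13 lineage regulators and receptors, 8 were tested, with medians of -0.05 and -0.08, from -2.91 for the endothelin receptor Ednrb to 1.30 for Mitf at day 14. Ednrb was 4.52, 4.84 and 4.48 on day 4 array 4 and day 14 arrays 2 and 5, and 9.07 to 11.90 on the other 13. Without these 3 arrays it differed by -0.39 and -0.50, and Mitf by 0.31 and 0.48.

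The 7 melanosome transport genes were all tested and all had differences above 0 at both days, with medians of 0.44 and 0.88 and 0 called. Mlph, the linker between Rab27a and myosin Va, was the highest at day 14 with 1.37 (standard error 0.693), and Myo5a, the motor itself, the lowest with 0.04. Without the 3 arrays Mlph differed by 0.54 at day 14. Of 21 genes of the BLOC, HPS and AP3 sorting complexes, 19 were tested, with medians of 0.24 and 0.38. Of 8 genes that process or sort Pmel, 7 were tested, with medians of -0.13 and -0.23. Among them Bace2, the protease that cuts Pmel into fibril fragments, differed by 0.63 and 0.76 (standard errors 0.737 and 0.689), and Cd63, which helps to sort Pmel, by 0.24 and 0.21. Without the 3 arrays Bace2 differed by 0.31 at both days, and Cd63 by 0.08 and -0.033. Pcsk6, a proprotein convertase, differed by -1.87 and -2.76, but its log2 signal was 4.84, 4.80 and 4.63 on the 3 arrays of few macrophage transcripts and 8.35 to 11.14 on the other 13. Without those 3 it differed by -0.59 and -0.72.

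Lysosome genes were read because the melanosome is related to that organelle. Of 16 listed, 11 were tested, with medians of 0.18 at day 4 and 0.08 at day 14 against control and 0 called. Of the macrophage genes, 16 of 17 were tested, each with a difference below 0 at both days and 0 called (medians -1.46 and -2.12). The 3 arrays with few detected macrophage genes enter these medians.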

How the data were processed

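Total RNA of the 16 tissue samples was labelled as biotinylated cRNA, per the labels' protocols, and hybridised to Illumina bead arrays. Per the file headers, each array has a column of signals and one of detection p-values. The deposited signals are linear intensity values that still hold their background, as their lowest values show. Below the first 23 lines each deposited p-value is printed 2441 lines too low, which was undone before use (Spearman correlation of signal and p then -0.993 to -0.97). A deposited table of log2 values of 16247 probes, which no source used here explains, served as an alternative. It ranks probes as the signals do (array medians 8.51 to 8.57).

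Probe names came from the platform annotation, updated by gene ID (14836 probes with 1 symbol). Signals underwent neqc-style processing in limma 3.58.1 (R 4.3.3): normexp background correction fitted through the p-values, offset 16, quantile normalization and log2. Arrays detected 15555 to 21669 probes, and the number of arrays limits the precision. The brightest probe stood for each gene. One limma model held the 3 groups without covariates, because no slide or batch is given, with two-sided tests adjusted by Benjamini-Hochberg over all 9450 genes. The model was tried on shuffled residuals of these arrays with known changes added, and the permutation test on a constructed case with a known answer.

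Beside the 6 genes and their probes, named genes were the 5 most alike per gene, a set of known pigment and marker genes, and the 2 largest differences of each list and comparison. The genes, lists, tests and arrays left out were chosen with earlier results of these data known. Promoter windows came from the RefSeq promoter table (build GRCm38.p6). Alternatives were the deposited table, median centring, offset 50, no detection filter, other probes, array weights, replicate numbers as a block, and leaving out single arrays or arrays that stood apart.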

Additional observations from a re-analysis of the deposited data

Results flagged for a closer look

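A sample far from the rest of its group was looked for in 54 sets of values, of which 13 had one by Dixon's test; chance gives about 5% of sets, and the probes and ratios share arrays. Control array 1 was far below the other controls on the log2 scale for both Pmel probes (5.45, next lowest 10.7, and 5.12), Mlana (4.62) and the 2 brightest Gpnmb probes (10.04 and 6.40). Its log2 ratio of Gpnmb to Mlana, 5.42, was far above the next highest control, 2.27, but Mlana was not detected there, so that value is no measured ratio. Day 14 array 4 was far below its group for Mlana (10.55), the brightest Gpnmb probe (13.50) and 3 of the 4 Slc45a2 probes (6.80, 6.74 and 6.76), and its ratio of Gpnmb to Slc45a2 was far above the others at 6.71, with 2.78 next. Day 4 array 2 was far below its group for the brightest Gpnmb probe, at 13.24 against 14.24.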

How the results depend on the processing

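The number of called genes among the 6 was 0 under each alternative, and no single difference or ratio passed its test under any, so a change of sign below concerns uncalled values, and its cause was not tested beyond the arrays left out. With control array 1, day 4 array 4 and day 14 arrays 2 and 5 left out, day 4 against control was -0.26 for Pmel, -0.25 for Mlana, -0.35 for Gpr143, -0.43 for Oca2, -0.19 for Slc45a2 and -0.26 for Gpnmb, and day 14 against control was -0.31, -0.38, -0.0082, -0.073, -0.52 and -0.17. Without control array 1 alone, day 4 turned to -0.042 for Mlana, -0.36 for Oca2 and -0.18 for Gpnmb, and day 14 to -0.070 for Gpnmb. Day 14 against day 4 turned to -0.049 for Pmel and -0.13 for Mlana without the 3 tumor arrays, with or without control array 1, and to -0.052, -0.24, -0.041 and -0.082 for Pmel, Mlana, Oca2 and Gpnmb with array weights. For Slc45a2 it was 0.022 with 1 other probe. The replicate numbers share only a number: deviations of 13 same-numbered pairs correlated from -0.806 to 0.446. With replicate number as a block 0 of the 6 genes were called. Day 4 against control was then 2.17 for Pmel, 2.28 for Mlana, 1.76 for Gpr143, 1.54 for Oca2, 2.13 for Slc45a2 and 0.86 for Gpnmb, day 14 against control 2.05, 2.05, 2.05, 1.52, 1.65 and 0.84 in that order, and day 14 against day 4 -0.12 for Pmel, -0.22 for Mlana, -0.016 for Oca2 and -0.017 for Gpnmb. With single arrays left out, day 4 against control ranged from 0.07 to 2.06 for Pmel, -0.042 to 2.00 for Mlana, -0.063 to 1.77 for Gpr143, -0.56 to 1.54 for Oca2, 0.11 to 2.04 for Slc45a2 and -0.18 to 0.66 for Gpnmb. Day 14 against control ranged from 0.29 to 2.07, 0.16 to 2.02, 0.78 to 2.22, 0.07 to 1.38, 0.042 to 1.99 and -0.070 to 0.68 in that order, and day 14 against day 4 from -0.74 to 0.97, -0.63 to 0.86, -0.41 to 1.57, -0.81 to 1.29, -1.09 to 0.97 and -0.14 to 0.27. The lowest values against control came mostly without control array 1 and the highest without day 4 array 2 or day 14 array 4. Median centring moved the median of all genes from 0.05 to -0.07 at day 4 and from 0.04 to -0.08 at day 14. Among named genes of the lists, leaving out the 3 tumor arrays, an alternative chosen after the data were seen, turned Slc7a11 to -0.079 at day 4 and Tyr to -0.19, Cd63 to -0.033, Kit to 0.087 and Rab27a to -0.14 at day 14.

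For ratios of Gpnmb to the other genes, leaving out the 4 arrays gave 0.00059 to Pmel and 0.087 to Gpr143 at day 4, 0.14 to Pmel, 0.20 to Mlana and 0.35 to Slc45a2 at day 14, and 0.14 to Pmel and 0.22 to Mlana between the days. Leaving out the 3 tumor arrays gave 0.10 to Gpr143 at day 4, 0.039 to Slc45a2 at day 14, and 0.14 to Pmel and 0.22 to Mlana between the days. The second Gpnmb probe gave 0.61 to Pmel, 0.57 to Mlana, 0.57 to Gpr143, 1.20 to Oca2 and 0.99 to Slc45a2 at day 14, 0.19 to Gpr143 at day 4, and 0.86, 0.88, 0.38 and 0.66 to Pmel, Mlana, Gpr143 and Oca2 between the days. The day 14 ratio to Oca2 was 0.17 in the deposited table, 0.20 with median centring and 0.033 with offset 50. With single arrays left out, the ratios to Pmel, Mlana, Gpr143, Oca2 and Slc45a2 ranged from -1.40 to -0.25, -1.33 to -0.14, -1.11 to 0.39, -0.87 to 0.89 and -1.37 to -0.12 at day 4, from -1.40 to -0.36, -1.34 to -0.23, -1.54 to -0.42, -0.71 to 0.38 and -1.31 to 0.030 at day 14, and from -0.71 to 0.59, -0.60 to 0.49, -1.30 to 0.27, -1.09 to 0.67 and -0.71 to 0.95 between the days.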

Other observations

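Receptors and carriers of the pigment cell outside the 6 genes gave uncalled differences of both signs in the limma model. Mc1r, the melanocortin receptor, differed by 0.93 at day 4 and 1.11 at day 14 on the log2 scale (standard errors 1.15 and 1.07). Kit, the stem cell factor receptor, which mast cells also make, differed by -0.40 and -0.52 (standard errors 0.436 and 0.407). Rab38, which helps to deliver enzymes to the melanosome, differed by 0.76 and 0.95, and Rab27a, which tethers the mature organelle, by 0.44 and 0.28. Without the 3 arrays of few macrophage transcripts these values were 0.38 and 0.14 for Mc1r, -0.14 and 0.087 for Kit, 0.35 and 0.10 for Rab38, and 0.28 and -0.14 for Rab27a.

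Lists of other cells known to make Gpnmb held 0 called genes. Of 7 osteoclast and lipid-laden macrophage genes 4 were tested, Lpl, Ctsk, Fabp5 and Lgals3, while Acp5, Spp1 and Cd36 were not. The median log2 differences of these 4 were -1.27 at day 4 and -1.60 at day 14. At day 14 they ran from -4.01 for the lipase Lpl to -0.13 for Fabp5. Whether these 4 genes mark such cells in this tissue was not tested. On day 4 array 4 and day 14 arrays 2 and 5, 2 of these 4 genes were detected, against 4 on each other array. Lpl was 4.51, 4.63 and 4.61 on these 3 arrays and 11.26 to 14.24 on the other 13, and without the 3 it differed by -0.62 and -0.69. Of 5 dendritic cell genes 3 were tested, with medians of -0.72 and -1.35. They went both ways, from -1.43 for Cd207 to 0.42 for Zbtb46 at day 4, and from -2.26 to 0.53 for the same genes at day 14. On day 4 array 4 and day 14 arrays 2 and 5, 1 of these 3 genes was detected, against 2 or 3 on each other array. Cd207 was 4.67, 4.85 and 4.63 there and 6.27 to 9.90 on the other 13.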
